A study of Mus musculus with 8 samples.

Results

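The intercalated disc joins heart muscle cells end to end, and 10 genes of its junctions were examined in hearts from C57Bl/6 mice that were 8 to 10 weeks old. They were the gap junction genes Gja1 and Gja5, the desmosome genes Dsp, Jup, Pkp2 and Dsg2, the adherens junction genes Cdh2, Vcl and Ctnna1, and the scaffold gene Tjp1. They were read through all probes whose single gene symbol in the platform annotation was one of these names, 10 of the 33600 probes on the array. These covered 8 of the 10 genes, among 13661 genes with such a symbol in all. Dsp appeared only on 2 probes that carry a second symbol, and no probe was listed for Ctnna1, so neither gene was analysed here.

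In 4 mice the left coronary artery was ligated for good on its descending branch, which gives a myocardial infarct (infarcted). Another 4 mice had the same operation without the knot (sham control). Per the labels, RNA of each heart went onto its own spotted array of 70-mer oligonucleotides with a red dye, beside a green-labelled RNA pool of adult mouse tissues, and no dyes were swapped. Tissue was whole heart in both groups, so infarcted and surviving muscle were not separated. The sources used here do not give the time after ligation.

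Gap junctions are channels of connexin proteins that pass current from one heart muscle cell to the next. Desmosomes anchor the desmin filaments of neighbouring cells to each other, and adherens junctions anchor their actin filaments. Redistribution of connexin 43, the product of Gja1, is a known feature of diseased ventricular muscle. Inherited defects of Dsp, Jup, Pkp2 and Dsg2 are known in arrhythmogenic cardiomyopathy.

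A level is the log2 ratio of a probe's signal to the median spot of its block on the same array, where a level of 0 is that median. Differences in level between probes are not read as differences in RNA amount, because each probe hybridises in its own way. Values were present for 21916 to 23655 probes on the infarcted arrays and for 19704 to 24819 on the sham control arrays. The deposited values hold a single channel, which the files do not name, and the heart channel is assumed. Some genes typical of other tissues in the reference pool were bright on these arrays. Median levels on infarcted and sham control arrays were 2.46 and 3.71 for testis, 1.98 and 3.47 for liver and 2.33 and 3.52 for stomach. They were 0.34 and 0.59 for lung, 0.01 and 0.01 for brain, -0.26 and -0.28 for spleen and 2.21 and 1.72 for 1 kidney probe. Prm1, a protamine of sperm, had a level of 3.08 ± 0.98 on infarcted and 4.70 ± 0.77 on sham control arrays (SD, n = 4 each). Tff1, a secreted peptide of the stomach, had 3.46 ± 0.68 on infarcted and 4.57 ± 0.48 on sham control arrays (SD, n = 4 each). Of 42 tested probes for genes of 7 such tissues, chosen after seeing the data, 31 had a mean above 0 in each group, 34 had a negative change in infarcted hearts and 1 passed the limma test below. Their median log2 fold change was -0.86, and the junction genes are also expressed in several of these tissues. How much of a junction gene's signal comes from heart RNA was not tested.

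Of the 10 member probes, 8 had a value on at least 3 arrays of each group and were tested, and 9 had any value. None of these 8 probes, which stand for 6 genes, passed the test between infarcted and sham control hearts (0 of 8 with a limma adjusted p under 0.05, and 0 of 8 at an unadjusted p under 0.05). Over all 20561 tested probes, 0.764% passed the adjusted threshold and 12.5% had an unadjusted p under 0.05. At a background of 0.764%, a count of 0 among 8 says little about these genes as a set. Averaged per gene, 0 of 6 genes passed, against 0.549% of all 18044 features. The groups overlapped for each of the 8 probes, where 9.11% of all tested probes had groups without overlap. The intervals below therefore carry the result, since they show which changes the data leave possible under the normalization used. They moved with the normalization. Whole-heart RNA cannot tell fewer cells of a type from less RNA per cell.

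**Figure D1:**
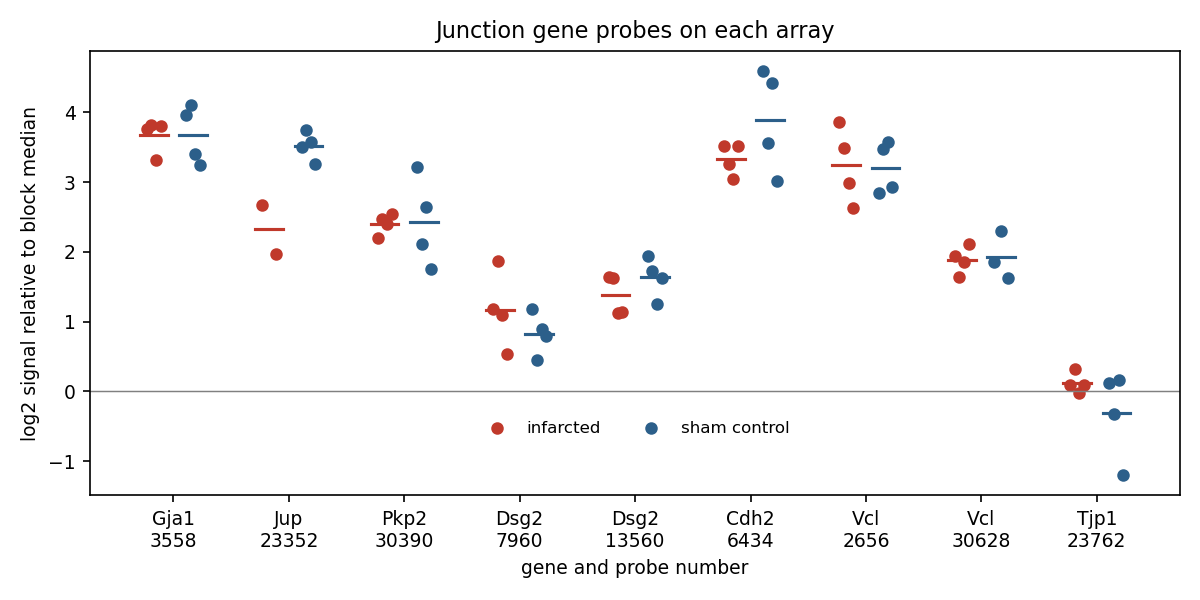
Each point is 1 array, with infarcted hearts left and sham control hearts right for each probe, and short lines mark group means. The vertical axis is the log2 signal relative to the block median. Groups overlap for 8 of the 9 probes with values, and the Jup probe has only 2 infarcted values, at 1.97 and 2.67, both under its lowest sham control value of 3.27.

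Gja1, which encodes connexin 43, the main connexin of ventricular muscle, stood at nearly the same mean in both groups. Its probe (3558) read 3.77, 3.81, 3.31 and 3.81 on the 4 infarcted arrays and 3.97, 4.11, 3.41 and 3.24 on the 4 sham control arrays. Sham control hearts held both the highest and the lowest value, so the infarcted values lay inside their range. The log2 fold change was -0.01 ± 0.26 (SE, limma adjusted p = 0.99), with a 95% interval from -0.60 to 0.58. On the linear scale that interval runs from 0.661-fold to 1.5-fold. Quantile normalization, which forces the arrays to a common distribution, moved the change to 0.42 ± 0.23 (SE, limma adjusted p = 0.58). The 95% interval was then from -0.09 to 0.94, so both bounds depend on the normalization.

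The single probe for Gja5, which encodes connexin 40 of the atria, the conduction system and arterial endothelium, had no value on any of the 8 arrays. It is among 6147 of the 33600 probes without any value, and no level can be given.

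Jup encodes plakoglobin, which links desmosomal cadherins to desmoplakin and also occurs in adherens junctions. Its probe (23352) read 2.67 and 1.97 on infarcted replicates 2 and 4 and had no value on infarcted replicates 1 and 3. The 4 sham control arrays read 3.5, 3.75, 3.57 and 3.27. Both infarcted values were below every sham control value, but with 2 values the probe fell short of the minimum for the test. When 2 values per group were allowed, the log2 fold change was -1.20 ± 0.32 (SE) and did not pass (limma adjusted p = 0.165, where 0.705% of all probes passed). The exact two-sided permutation test gave p = 0.0667, the smallest that 2 against 4 values can give. Among the 132 probes with the same numbers of values, 14.4% had infarcted values below all sham control values.

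Pkp2 encodes plakophilin 2, a plaque protein that ties desmosomal cadherins to the desmin network. Its probe (30390) read 2.19, 2.48, 2.40 and 2.55 in infarcted hearts and 3.22, 2.11, 2.65 and 1.76 in sham control hearts. The infarcted values were close together, with an SD of 0.15, whereas the sham control values spread over both sides of them, with an SD of 0.64. The means differed by -0.03 ± 0.31 (SE, limma adjusted p = 0.98), with a 95% interval from -0.73 to 0.67. Without sham control replicates 2 and 4, the sham control arrays with the fewest values, the change was -0.53, and without sham control replicates 1 and 3, a setting chosen after seeing the data, it was 0.47 (limma adjusted p = 0.27 and 0.44).

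Dsg2 encodes desmoglein 2, the desmosomal cadherin of heart muscle that also occurs in epithelia. Its first probe (7960) read 1.18, 1.87, 1.10 and 0.54 in infarcted hearts and 1.18, 0.45, 0.89 and 0.79 in sham control hearts. The second probe (13560) read 1.64, 1.63, 1.12 and 1.14 in infarcted hearts and 1.94, 1.72, 1.25 and 1.63 in sham control hearts. The probes disagreed in sign, with log2 fold changes of 0.35 ± 0.31 and -0.25 ± 0.24 (SE), and neither passed (limma adjusted p = 0.71 and 0.73). With 1 array left out at a time, the first probe moved between 0.11 (without infarcted replicate 2) and 0.56 (without infarcted replicate 4). The second moved between -0.38 (without sham control replicate 3) and -0.15 (without sham control replicate 1). Averaged over both probes, Dsg2 differed by 0.05 ± 0.26 (SE, limma adjusted p = 0.97).

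Cdh2 encodes N-cadherin, the cadherin of the heart's adherens junctions, which is also known from brain and other tissues of the pool. Its probe (6434) read 3.52, 3.27, 3.05 and 3.52 in infarcted hearts and 4.60, 3.56, 4.43 and 3.01 in sham control hearts. Sham control replicates 1 and 3 stood well above every infarcted heart, sham control replicate 2 just above them, and sham control replicate 4 just below them. The log2 fold change was -0.56 ± 0.35 (SE, limma adjusted p = 0.58), with a 95% interval from -1.35 to 0.23, the lowest change among the tested members.

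The Cdh2 value moved both with the normalization and with the sham control hearts used. It was -0.14 after quantile normalization and -0.13 after loess (limma adjusted p = 0.91 and 0.89). With 1 array left out it moved between -0.86 (without sham control replicate 4) and -0.33 (without sham control replicate 1). Without sham control replicates 2 and 4 it was -1.17 ± 0.26 and passed (SE, limma adjusted p = 0.0327). In that setting 5.79% of all tested probes passed. Without sham control replicates 1 and 3 it was 0.05 ± 0.29 (SE, limma adjusted p = 0.96). Genes of other tissues had mean levels of 1.31 to 1.61 on the 4 infarcted arrays and of 2.56, 1.43, 2.75 and 2.12 on sham control arrays 1 to 4. The 2 sham control arrays with the highest Cdh2 values thus also had the highest levels of these genes, and their part in the Cdh2 value was not tested.

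**Figure D2:**
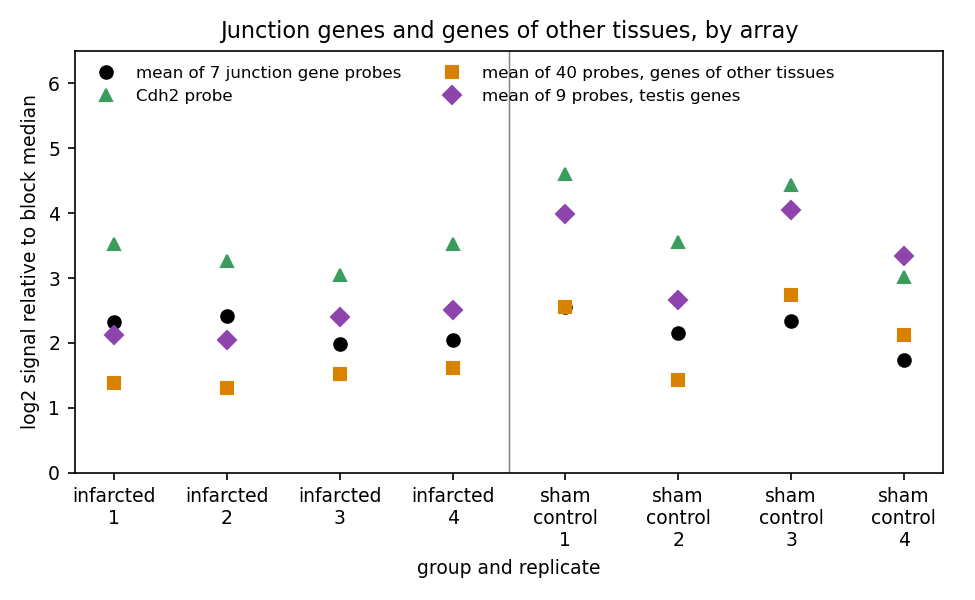
Mean log2 signal relative to the block median on each of the 8 arrays, with infarcted arrays left of the line and sham control arrays right of it. Points show 7 junction gene probes with values on all arrays, the Cdh2 probe, 40 probes for genes of other tissues, and the 9 testis gene probes among them. Sham control replicates 1 and 3 are high in Cdh2 and in genes of other tissues, and the 7 junction gene probes together range from 1.99 to 2.41 in infarcted hearts and from 1.74 to 2.55 in sham control hearts.

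Vcl encodes vinculin, which couples the cadherin and catenin complex to actin and also sits at costameres. Its first probe (2656) read 3.87, 3.49, 2.98 and 2.62 in infarcted hearts and 2.84, 3.48, 3.58 and 2.94 in sham control hearts. The second (30628) read 1.94, 1.64, 1.86 and 2.11 in infarcted hearts and 1.86, 2.30 and 1.63 on sham control arrays 1, 3 and 4, with no value on sham control array 2. On the second probe the sham control hearts held the highest and the lowest value, and on the first the infarcted hearts did. The log2 fold changes were 0.03 ± 0.32 and -0.04 ± 0.26 (SE, limma adjusted p = 0.98 and 0.97). The 95% interval was from -0.68 to 0.74 for the first probe and from -0.63 to 0.55 for the second. The first probe stood at 0.39 after quantile normalization, with a 95% interval from -0.39 to 1.16, and at 0.37 after loess (limma adjusted p = 0.75 and 0.69).

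Tjp1 encodes ZO-1, a scaffold that binds connexin 43 at the edge of gap junction plaques and also serves tight junctions. Its probe (23762) read 0.09, 0.32, -0.02 and 0.10 in infarcted hearts and 0.11, -0.32, 0.16 and -1.20 in sham control hearts. Sham control replicate 4 lay well below the other 7 arrays. The log2 fold change was 0.43 ± 0.31 (SE, limma adjusted p = 0.63), with a 95% interval from -0.26 to 1.13, the highest among the tested members. Without sham control replicate 4 it was 0.14. Without sham control replicates 2 and 4 it was -0.016, and without sham control replicates 1 and 3 it was 0.88 (limma adjusted p = 0.98 and 0.24).

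**Figure D3:**
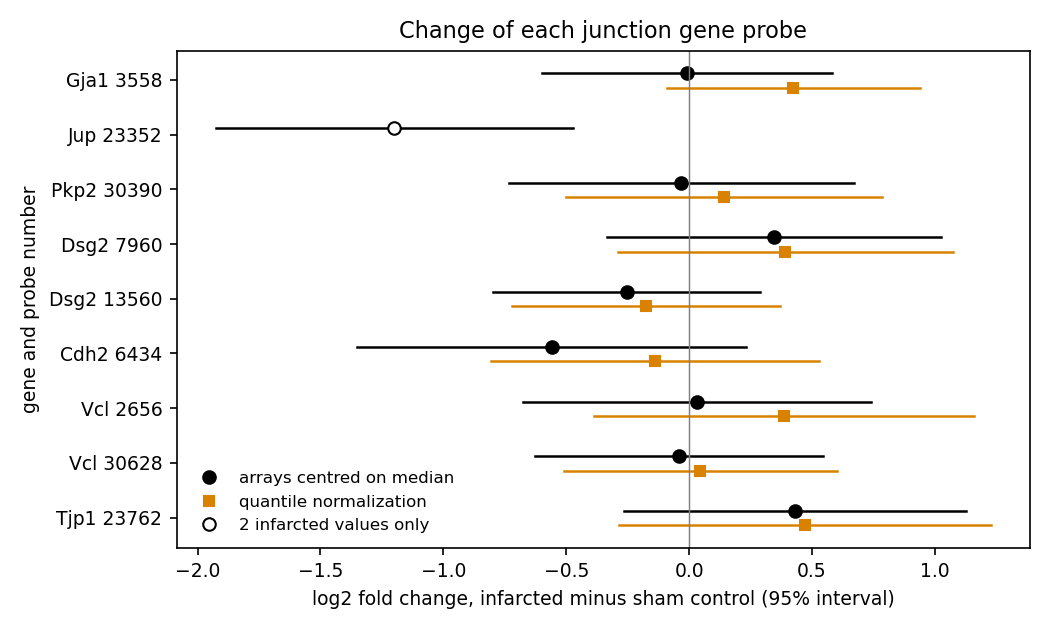
Log2 fold change of each probe (infarcted minus sham control) with its 95% interval, for arrays centred on their median (circles) and after quantile normalization (squares). The open circle marks Jup, which has 2 infarcted values and was tested only with a lower minimum. All 8 tested probes have intervals that include 0 under both settings. The interval drawn for Jup, from -1.93 to -0.47, does not include 0.

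Exact two-sided permutation tests over the arrays gave p between 0.2 and 1 for the 8 tested probes, where 0.0286 is the smallest that the design allows. Over the 8 probes, 3 changes were positive and 5 negative, with a median of -0.02, against a median of -0.07 over all 20561 tested probes. After quantile normalization 6 of the 8 were positive, with a median of 0.26 against 0.01 over all probes, and again 0 of 8 passed, against 0.17% of all probes (limma adjusted p between 0.58 and 0.97). The sign of Gja1, of Pkp2 and of the second Vcl probe turned between these settings.

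The shift between settings went with signal level. The 1063 probes at a mean level from 3 to 4, where Gja1, Cdh2 and the first Vcl probe lie, had a median change of -0.30. After quantile normalization the same probes had a median change of 0.07. Set against the -0.30 of probes of their level, Gja1 at -0.01 and Vcl at 0.03 stood higher and Cdh2 at -0.56 stood lower. The 1925 probes at a level from 2 to 3, which include Pkp2, had a median change of -0.12, and the 4439 probes at a level from -1 to 0, which include Tjp1, had 0.03. These positions are descriptions and were not tested.

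**Figure D4:**
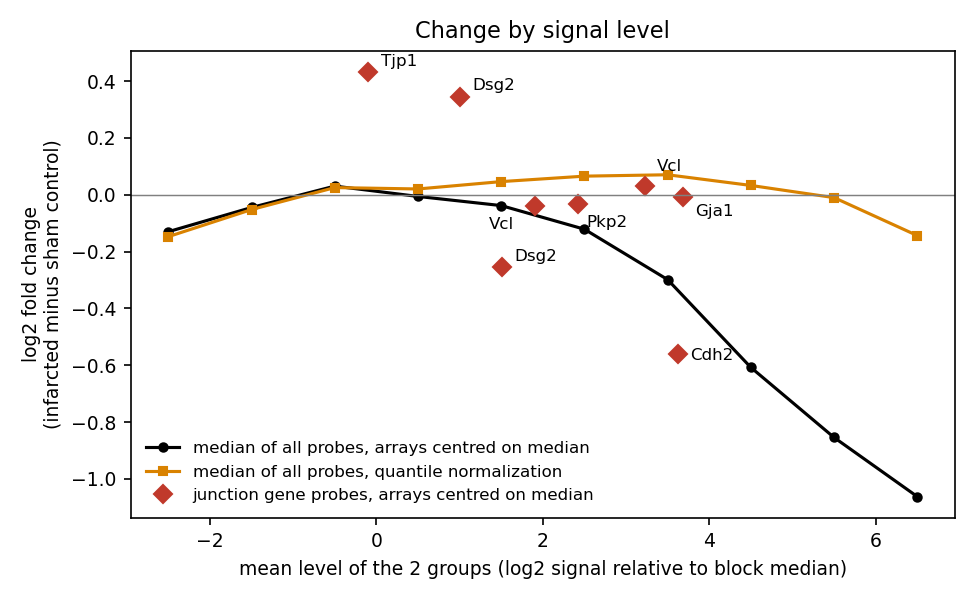
The horizontal axis is the mean level of both groups and the vertical axis the log2 fold change, infarcted minus sham control. Lines join the medians of all tested probes in steps of 1 log2 unit, for both normalizations, and diamonds are the 8 junction gene probes. With arrays centred on their median, the median change falls to -0.61 at levels from 4 to 5, while quantile normalization leaves 0.03 there.

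Spread within the groups was uneven for several members. Of 7 member probes with values on all 8 arrays, 4 had a larger SD in sham control hearts, with a median SD of 0.24 in infarcted and 0.42 in sham control hearts. Over all 17178 such probes, 68.4% had the larger SD in sham control hearts, with medians of 0.32 in infarcted and 0.44 in sham control hearts. Sham control replicate 4 held the lowest value of 4 of the 7 probes, and sham control replicate 1 the highest value of 3.

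Across the 8 arrays, Pearson's r of other members with the Gja1 probe was 0.53 for the second Dsg2 probe, 0.41 for Tjp1, 0.35 for Pkp2, 0.33 for Cdh2, 0.14 for the first Vcl probe and -0.027 for the first Dsg2 probe. The named genes most like Gja1 were Denn2b (r = 0.94), Prdm16 (r = 0.92), Sdhaf4 (r = 0.92), Doc2g (r = 0.92) and Oaz2 (r = 0.90). They were picked as the highest of 10803 probes over 8 arrays that share their array effects, so the values are descriptions.

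The other genes of the same structures were followed in 5 lists with 118 genes, of which 66 genes with 97 probes could be tested. None passed (0 of 97 with a limma adjusted p under 0.05, and 7 of 97 at an unadjusted p under 0.05), where 0.764% of all tested probes passed and 12.5% had an unadjusted p under 0.05. Of the 97 changes, 40 were positive and 57 negative. The median change was -0.10, near the -0.07 of all probes. After quantile normalization 0 passed as well.

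Among 7 tested probes for other connexins and pannexins, 4 changes were positive and the median was 0.12. Gjb1, connexin 32 of liver and myelinating glia, stood at -0.65 ± 1.27 in infarcted and 0.61 ± 0.90 in sham control hearts (SD, n = 4 each), a change of -1.26 ± 0.63 (SE, limma adjusted p = 0.46). Gjb2, connexin 26 of cochlea and liver, had a change of 0.59 ± 0.33 (SE, limma adjusted p = 0.52). Both means of Gjb2 were below the block median, at -1.23 in infarcted and -1.82 in sham control hearts.

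Among 8 tested probes for other desmosome genes and desmin anchors, 3 changes were positive and the median was -0.07. Periplakin, encoded by Ppl, had changes of 0.58 ± 0.26 and 0.33 ± 0.42 on its probes (SE, limma adjusted p = 0.41 and 0.82). Desmocollin 2, the partner cadherin of desmoglein 2 in heart muscle, is encoded by Dsc2 and had changes of 0.20 ± 0.26 and -0.09 ± 0.29 (SE, limma adjusted p = 0.82 and 0.94). As with Dsg2, the probes differed in sign and neither passed.

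Of 32 tested probes for other adherens junction genes, 12 changes were positive and the median was -0.12. Ctnnal1, a relative of the alpha catenins, had 0.60 ± 0.22 on one probe and 0.02 ± 0.41 on the other (SE, limma adjusted p = 0.29 and 0.99). Ctnna2, the alpha catenin of neurons, had a change of -0.63 ± 0.34 (SE, limma adjusted p = 0.50), which was -0.25 after quantile normalization.

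Of 22 tested probes for other ZO and tight junction genes, 9 changes were positive and the median was -0.10. Dlg1, a membrane scaffold also known as SAP97, stood at 2.02 ± 0.09 in infarcted and 1.29 ± 0.31 in sham control hearts (SD, n = 4 each). The groups did not overlap, which held for 9.11% of all tested probes. Its change of 0.73 ± 0.22 did not pass (SE, limma adjusted p = 0.19), and quantile normalization left it at 0.84. Magi1, a scaffold of tight and adherens junctions, had -0.92 ± 0.51 and 0.00 ± 0.20 on its probes (SE, limma adjusted p = 0.51 and 1.00).

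Of 28 tested probes for disc-associated proteins of heart muscle, 12 changes were positive and the median was -0.18, or 0.12 after quantile normalization. Csrp3, the muscle LIM protein of the Z-disc and cytoskeleton, stood at 5.18 ± 0.14 in infarcted and 6.15 ± 0.19 in sham control hearts (SD, n = 4 each). Its change of -0.98 ± 0.21 did not pass (SE, limma adjusted p = 0.0673) and was -0.08 after quantile normalization. Fhl2, a LIM protein that binds titin, had -1.16 ± 0.32 (SE, limma adjusted p = 0.17), which became -0.27 after quantile normalization. Both lie at levels above 5, where the median change of all probes was -0.85 or lower.

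Transcription factors known to act on connexin genes had a median change of -0.01 over 23 tested probes, and 0 passed. Of the 23 probes, 4 had an unadjusted p under 0.05 (limma), against 12.5% of all tested probes. Hopx, a homeodomain protein of the heart and conduction system, had changes of -1.04 ± 0.24, -0.79 ± 0.23 and -0.31 ± 0.38 on its probes (SE, limma adjusted p = 0.0886, 0.177 and 0.81). After quantile normalization these were -0.95, -0.04 and 0.19, so the probes disagreed. Jun, a subunit of the AP-1 factor, had -0.65 ± 0.23 (SE, limma adjusted p = 0.27).

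**Figure D5:**
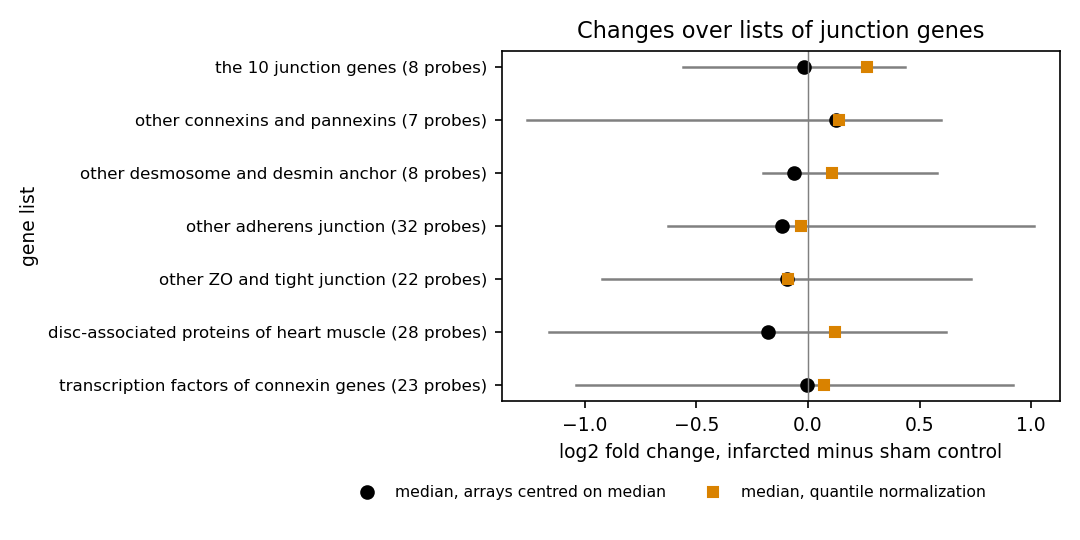
Each row is a list of genes, with the number of tested probes in brackets. The horizontal axis is the log2 fold change, infarcted minus sham control, grey lines run from the lowest to the highest change, circles are medians with arrays centred on their median, and squares are medians after quantile normalization. The medians of the 7 lists lie between -0.18 and 0.26, and none of the probes drawn here passed the threshold.

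Markers of the cells that a whole heart holds give the setting of these values. Of 13 tested macrophage and monocyte probes 12 were positive, with a median change of 0.74, and the mean level of the list was 1.06 to 1.66 on infarcted arrays and 0.34 to 0.75 on sham control arrays. None of them passed, and 7 of the 13 had an unadjusted p under 0.05 (limma), against 12.5% of all tested probes. Of all 20561 tested probes, 8873 had a positive change. Median changes were 0.27 over 13 heart muscle probes, -0.13 over 6 atrial and conduction probes, -0.05 over 13 fibroblast probes and 0.20 over 15 endothelial probes. They were -0.36 over 15 smooth muscle and pericyte probes, -0.42 over 10 mesothelial and epithelial probes and 0.23 over 3 erythroid probes, and 0 passed in any of these lists. After quantile normalization the heart muscle median was 0.58 and the endothelial median 0.34. Titin, encoded by Ttn, gave 7 of the 13 heart muscle probes, with changes from -0.91 to 1.27, and without it the median was -0.026. Pecam1 gave 3 of the 15 endothelial probes, with changes from 0.20 to 0.98, and without it the median was -0.28. Mybpc3, a myosin-binding protein of the thick filament, had -1.11 ± 0.38 with 3 infarcted values (SE, limma adjusted p = 0.27). After quantile normalization it was -0.31, and of the 13 heart muscle changes 8 were positive and 5 negative. Hba-a1, an alpha globin with a near-identical copy, had -1.74 ± 0.32 with 3 sham control values (SE, limma adjusted p = 0.0505). After quantile normalization it was -1.01. Of the 3 erythroid changes, 2 were positive and 1 was negative, that of Hba-a1. Mybpc3 and Hba-a1 lie at mean levels from 5 to 6, where the median change of all probes was -0.85. Only 13 of the 25 heart muscle probes could be tested, and among 1073 probes whose signal exceeded 20000 on some array, 38 values were missing on infarcted and 190 on sham control arrays. The mean level of the heart muscle list was 3.94 to 4.17 on infarcted arrays and 3.06 to 4.35 on sham control arrays, over 7 probes with values on all 8. The part of cell makeup in the junction gene values was not tested.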

How the data were processed

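The deposited table held log2 values for 33600 probes on 8 arrays, and the sources used here do not say how the authors made them. Within each of 48 blocks of 700 consecutive probes and on each array, 2 to the power of the value times 1 constant was whole within 0.001 for all values. The recovered signals reached 65466, so the deposited log2 values were read as the signal of 1 channel over the block median. A ratio to the reference was not available. Probes were named through the platform annotation: 18179 had 1 symbol, 87 several, and 15334 were not listed. Entrez identifiers of 18164 probes were found in the RefSeq table of GRCm38.p6, and 0 symbols needed an update.

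Arrays were centred on their medians, which were already 0. The test was limma's moderated linear model (lmFit, eBayes; limma 3.58.1, R 4.3.3) on probes with at least 3 values per group, with Benjamini-Hochberg adjustment across the 20561 such probes. The fit was tested on simulated data with known changes and independent noise per probe. Those data held no array effects and no shift with signal level, so they do not test the fit against either. The threshold was an adjusted p of 0.05. Permutation tests were exact and two-sided. Per the labels each array had the RNA of its own heart, so p-values measure the spread between hearts and arrays together, and the number of arrays limits the precision. The correlation between arrays of a group was at most 0.958, so none was a copy of another.

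Members and lists were chosen with earlier results of these data known. Besides all member probes, the 2 genes with the smallest p were named in each of the 5 junction lists and the transcription factor list, since none had a probe past the threshold, and the 5 genes most like Gja1. Ttn, Pecam1, Mybpc3 and Hba-a1 were named after their values were seen. Alternatives were quantile and loess normalization, removal of spot position, other minimums of values, eBayes with trend and robust, no centring, averaging per gene, arrays left out, and the replicate number as a block. Added after seeing the data were the list of genes of other tissues and the fit without sham control replicates 1 and 3.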

Additional observations from a re-analysis of the deposited data

Results flagged for a closer look

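Infarcted replicate 3 lay apart from the other infarcted hearts in Gja1, with a level of 3.31 where the other 3 lay between 3.77 and 3.81. The gap was 0.90 of the group's range, above Dixon's 95% critical value for 4 samples. Chance flags about 1 in 20 groups, and 16 groups of 4 values were looked at over the member probes. Without that array the change of Gja1 was 0.11.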

How the results depend on the processing

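The count of 0 member probes past the threshold was 0 in each setting run except one. Without the 2 sham control arrays with the fewest values, 1 of 8 member probes (Cdh2), 1 of 6 member genes and 3 of 98 other junction probes passed. The last were Magi1, Nectin1 and Ank3. In that setting 5.79% of all 21142 tested probes passed. Averaging per gene gave 0 of 6 genes, and leaving out 1 array at a time gave 0 member probes and 0 member genes. For other junction probes it gave 0 to 1, the 1 being Csrp3 at -1.04 without sham control replicate 4. In that fit 37 of all 19499 tested probes passed as higher and 653 as lower. The median change of the members was 0.26 after quantile normalization and -0.15 to 0.09 with 1 array left out. Signs turned for Gja1 (0.42 with quantile normalization, 0.44 with loess, -0.15 to 0.14 with 1 array left out), Pkp2 (0.14, 0.14, -0.26 to 0.23, and 0.47 without sham control replicates 1 and 3) and Vcl probe 30628 (0.045, 0.079, -0.11 to 0.042). They also turned for Vcl probe 2656 (-0.18 to 0.24 with 1 array left out), Tjp1 (-0.016 without the 2 sham control arrays with the fewest values) and Cdh2 (0.053 without sham control replicates 1 and 3). The cause was not tested.

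Deviations of same-numbered arrays correlated at 0.03, 0.31, -0.09 and -0.20. These were not set against arrays of different number, so whether replicate numbers mark shared processing was not tested. With the replicate block Vcl probe 30628 stood at 0.042, and 0 member probes passed. Over all probes, 13 higher and 144 lower became 1 and 0 with the block, 5 and 30 with quantile normalization, 20 and 81 with loess, and 43 and 1182 without the 2 sham control arrays with the fewest values. They became 20 and 16 without sham control replicates 1 and 3, 37 and 653 without sham control replicate 4, and 2 and 1 without infarcted replicate 3.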

Other observations

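The 2 probes listed for both Dspp, a protein of dentin, and Dsp, which encodes desmoplakin, were left out of the members because their gene is not settled. Probe 976 had levels of 1.83 ± 0.54 in infarcted and 2.01 ± 0.86 in sham control hearts (SD, n = 4 each), and differed by -0.18 ± 0.44 (log2, SE, limma adjusted p = 0.91). Probe 28948 had levels of 2.66 ± 0.74 in infarcted and 2.51 ± 0.82 in sham control hearts (SD, n = 4 each), a change of 0.16 ± 0.47 (SE, limma adjusted p = 0.93). On both probes the lowest sham control value was that of replicate 2, at 0.87 and 1.31.

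Genes of other tissues in the reference pool differed by tissue. The 9 testis probes all had negative changes in infarcted hearts, with a median of -1.18, and 1 passed (limma adjusted p under 0.05). The 8 liver probes likewise had negative changes, with a median of -1.30, and the 7 stomach probes too, with -0.96. The 8 brain probes had a median change of -0.14, the 6 lung probes -0.57 and the 3 spleen probes 0.02, and the 1 kidney probe had 0.49. After quantile normalization the testis, liver and stomach medians were -0.96, -1.06 and -0.62. These genes were chosen after seeing the data, and which channel the values hold was not tested.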
